A study of Mus musculus with 2 samples.

Results

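H3K4me1, histone H3 monomethylated at lysine 4, was mapped in mouse pre-B cells, and the loci of 4 genes that carry signals from the bone marrow niche were examined: Il7r, Stat5a, Stat5b and Cxcr4. All regions overlapping 3 windows of the mouse build mm9 by at least 1 base were taken: the Il7r window on chromosome 15 (9380001 to 9520000), the Stat5 window on chromosome 11, set for Stat5b and Stat5a (100580001 to 100800000), and the Cxcr4 window on chromosome 1, set for Cxcr4 and the sequence upstream of it (130400001 to 130700000). They held 16, 15 and 32 regions, 63 of the 48130 regions in the list. The windows are called by these genes because they were set for them; no mm9 gene annotation was used, so no region is assigned to a promoter, exon, intron or UTR.

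The series held 2 libraries, 1 of H3K4me1-precipitated chromatin and 1 input library made with no antibody, against which the authors called the regions. Both came from bone marrow pre-B cells of B6 mice, aged 6 to 14 weeks and of both sexes, that lacked Rag1 and carried an already rearranged IgM transgene. Such cells cannot rearrange their own antigen receptor genes, and this holds for the input library as well. The labels give neither the promoter of the transgene nor the number of mice behind either library. The H3K4me1 library held 50945360 tags, of which 15701950 lay in regions, per the file header. Neither the header nor the labels state how deeply the input was sequenced. With 1 library per group there was no spread between replicates, no test was made, and intervals cover counting error only. The labelled cell type could not be checked against marker genes, since the list holds positions of 1 histone mark.

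Interleukin-7, made by stromal cells of the marrow, binds a receptor built from the alpha chain encoded by Il7r and the common gamma chain. Kinases bound to this receptor phosphorylate the transcription factors STAT5A and STAT5B, encoded by the neighbouring genes Stat5a and Stat5b, which then pair, enter the nucleus and bind DNA; in mice this signal is needed for survival and growth of early B-lineage cells. Cxcr4 encodes the receptor of the chemokine CXCL12, which holds precursors close to the stroma. H3K4me1 is found at enhancers, active and poised, and on the flanks of active promoters, where it often leaves a dip over the start site.

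The promoters of the 4 genes differed in their letters at the annotated starts. Their sequences come from RefSeq on GRCm38.p6, a build other than that of the regions, so their positions cannot be set against the region positions given here; all 4 genes matched, with 6 promoters in all. Of these, 4 are printed, each from 250 bases before the annotated start to 20 bases after it. Capitals mark 2 motifs searched on both strands, the STAT motif TTCNNNGAA and the ETS-type motif ACAGGAAG (CTTCCTGT on the other strand), which was chosen after the sequences had been seen. The motifs do not overlap here. The first annotated promoters of Stat5b and Stat5a hold neither motif and are not printed. The Il7r promoter (chr15:9529857-9530126, minus strand) is shown because it holds both, the Cxcr4 promoter (chr1:128592280-128592549, minus strand) because it holds neither, and the second annotated promoters of Stat5b (chr11:100822551-100822820, minus strand) and Stat5a (chr11:100860234-100860503, plus strand) because they share a stretch of sequence.
Il7r: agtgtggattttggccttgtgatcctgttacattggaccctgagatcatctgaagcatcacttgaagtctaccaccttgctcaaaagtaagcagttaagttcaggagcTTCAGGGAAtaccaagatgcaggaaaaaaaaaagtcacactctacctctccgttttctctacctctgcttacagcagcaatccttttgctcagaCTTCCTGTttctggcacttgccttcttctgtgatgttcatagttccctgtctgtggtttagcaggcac
Cxcr4: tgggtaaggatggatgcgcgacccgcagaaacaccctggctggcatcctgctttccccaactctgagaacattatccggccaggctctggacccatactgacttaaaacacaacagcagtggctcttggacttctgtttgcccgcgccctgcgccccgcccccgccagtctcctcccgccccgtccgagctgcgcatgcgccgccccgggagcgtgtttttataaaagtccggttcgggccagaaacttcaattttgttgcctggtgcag
Stat5b: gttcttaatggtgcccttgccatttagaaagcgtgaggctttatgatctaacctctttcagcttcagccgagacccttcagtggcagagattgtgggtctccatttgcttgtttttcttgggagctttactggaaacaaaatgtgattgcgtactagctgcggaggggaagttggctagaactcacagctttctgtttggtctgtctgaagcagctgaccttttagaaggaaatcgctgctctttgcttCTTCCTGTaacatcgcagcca
Stat5a: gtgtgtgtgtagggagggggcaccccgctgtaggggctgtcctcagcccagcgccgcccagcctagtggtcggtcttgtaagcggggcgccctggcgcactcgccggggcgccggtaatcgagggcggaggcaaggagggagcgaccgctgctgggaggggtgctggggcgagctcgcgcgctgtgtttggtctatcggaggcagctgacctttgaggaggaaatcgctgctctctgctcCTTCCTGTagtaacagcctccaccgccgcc

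The STAT motif of Il7r starts 142 bases before the annotated start and its ETS-type motif 48 bases before it. The ETS-type motif begins 10 bases before the second start of Stat5a and 1 base before that of Stat5b. Among all 32851 promoters of 300 bases in the table, 8.30% hold the STAT motif and 3.58% the ETS-type motif. These matches are descriptions of the letters, not binding sites. The Il7r promoter is poor in CG dinucleotides, with 1 in 300 bases, against a median of 7 over all promoters. Cxcr4 has 20. The 2 annotated promoters of Stat5b have 50 and 7, and those of Stat5a have 5 and 27.

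The most alike 40 bases of the second Stat5a and Stat5b promoters, aligned without gaps, are the same at 36 positions. Capitals below mark the 4 positions at which they differ.
Stat5a: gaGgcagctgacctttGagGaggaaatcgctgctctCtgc
Stat5b: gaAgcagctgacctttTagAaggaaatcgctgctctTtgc
In both genes this stretch lies just before the ETS-type motif. In the RefSeq gene order, Stat5b and Stat5a are direct neighbours on opposite strands, facing away from each other, with Ghdc before Stat5b and Stat3 after Stat5a. Il7r lies between Capsl and Spef2, and Cxcr4 between Dars and Thsd7b, counting protein-coding genes only.

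H3K4me1 regions were dense over the Il7r window, on both sides of an unmarked stretch of 26.9 kb. Unmarked means here only that no region was called. Per the file header 30.82% of tags lay in regions, and the signal between regions was not examined. The 16 regions covered 66.2 kb, which is 47.3% of the 140 kb window, against 4.84% of chromosome 15 between its first and last regions. There were 11.4 regions per 100 kb in the window (exact Poisson 95% interval 6.53 to 18.6), against 2.06 per 100 kb on the chromosome, a ratio of 5.55. At least 1 region lay in 52.4% of the 17137 autosomal tiles of this width, so the presence of regions alone sets no window apart.

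The longest region of the Il7r window spanned 17149 bases (9389432 to 9406580), and it alone made up 25.9% of the covered bases. The next were 8822 bases (9416611 to 9425432), 7684 bases (9500724 to 9508407), 6672 bases (9459186 to 9465857) and 5213 bases long (9410606 to 9415818). Together these 5 regions held 68.8% of the covered bases. Of the other 11 regions, 2 had the shortest length in the list, 501 bases, and the longest measured 4004 bases.

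The unmarked stretch (9427376 to 9454312) lay between a region of 1199 bases (9426177 to 9427375) and one of 3558 bases (9454313 to 9457870). Joined over gaps of up to the stitching gap given with the processing, the regions formed a block on each side of it; over gaps of up to 5 kb they formed 5, and up to 25 kb again 2. The first block held 5 regions and was compact: they covered 81.3% of its 44.3 kb. The second held 13 regions, 11 of them in the window, and ran on past the border to 9539377; 40.9% of its 85.1 kb was covered. By covered bases the blocks ranked 342 and 364 among the 20379 stitched domains of the genome. The first block began 16.9 kb after the nearest earlier region.

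**Figure D1:**
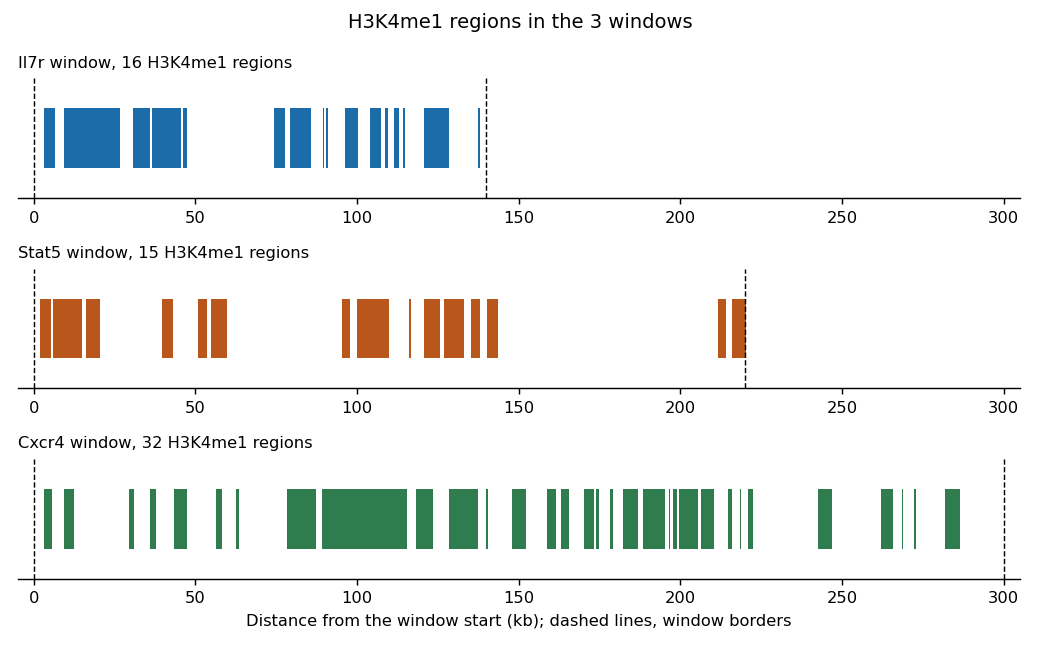
Positions of the H3K4me1 regions (bars, drawn to scale) along the Il7r, Stat5 and Cxcr4 windows, in kb from each window's start; dashed lines are the window borders. The Il7r regions lie on both sides of a stretch of 26.9 kb without a called region. The Stat5 regions leave such a stretch of 68.0 kb, and the Cxcr4 regions crowd into the middle of the window.

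Regions of the Stat5 window lay in islands, with long stretches without a called region between them. Its 15 regions covered 65.1 kb, 29.6% of the 220 kb window, against 7.39% of chromosome 11, and numbered 6.82 per 100 kb (exact Poisson 95% interval 3.82 to 11.2), against 2.99 on the chromosome. The ratio to the chromosome was 4.003 by covered bases and 2.28 by number of regions. Of the 10895 autosomal tiles of this width, 59.1% held at least 1 region.

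No region of the Stat5 window reached 10000 bases, and none had the shortest length. In the whole list 2.15% of regions reached 10000 bases and 14.3% had the shortest length. With only 15 regions, the lack of both does not set this window apart. The longest region of the window spanned 9994 bases (100680022 to 100690015). It was followed by regions of 8840 bases (100585958 to 100594797), 6209 bases (100707006 to 100713214), 5152 bases (100634716 to 100639867) and 5083 bases (100700667 to 100705749). These 5 held 54.2% of the covered bases and the longest alone held 15.3%. A region of 4234 bases crossed the upper border (100796087 to 100800320). The other 9 regions measured 633 to 4604 bases.

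The longest unmarked stretch of the Stat5 window ran over 68.0 kb (100723699 to 100791665), from the end of a region of 3475 bases (100720224 to 100723698) to the start of one of 2559 bases (100791666 to 100794224). A second ran over 35.4 kb (100639868 to 100675289). Between these stretches lay an island of 7 regions over 48.4 kb, from 100675290 to 100723698, of which 63.2% was covered; it held 47.0% of the covered bases of the window and ranked 477 among stitched domains. The other 3 domains touching the window held 3, 3 and 2 of its regions. Over gaps of up to 5 kb the window had 6 domains and up to 25 kb it had 3, against 4 here. A gap of 6.02 kb inside the island (100690016 to 100696032) breaks it at 5 kb, so its extent, share and rank depend on the stitching gap. Which of Stat5b, Stat5a and the neighbouring genes lie under the island and the stretches was not analysed here. Of the 14 gaps of the window, those between islands included, 8 (57.1%) were dips, meaning here only gaps of up to 2.5 kb without a called region. Dips made up 46.7% of 15 gaps in the Il7r window and 32.3% of 31 in the Cxcr4 window, against 26.05% of all gaps in the list. Gaps across the window borders were left out, and short gaps go with the higher number of regions per 100 kb, so these shares are not like for like.

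The Cxcr4 window held the longest and first-listed region of the 3 windows, in a crowded middle part. Its 32 regions covered 120.0 kb, 40.01% of the 300 kb window, against 3.74% of chromosome 1, a ratio of 10.7. There were 10.7 regions per 100 kb (exact Poisson 95% interval 7.30 to 15.1), against 1.65 on the chromosome, a ratio of 6.45. Of the 7984 autosomal tiles of this width, 63.2% held at least 1 region.

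The longest Cxcr4 region ran unbroken over 26351 bases (130489245 to 130515595). It was the 41st longest in the whole list and made up 22.0% of the covered bases of the window. A gap of 2.03 kb parted it from a region of 8891 bases (130478326 to 130487216). The other long regions spanned 8998 bases (130528423 to 130537420), 6601 bases (130588537 to 130595137) and 5946 bases (130599507 to 130605452), and the 5 together held 47.3% of the covered bases. Of the other 27 regions, 5 had the shortest length, and the longest measured 5075 bases. The shortest length made up 15.6% of the regions of this window, against 14.3% of all regions.

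At the same stitching gap the Cxcr4 regions fell into 5 domains, against 11 at a gap of 5 kb and 1 at 25 kb, so the extent and rank of a domain hold for that gap only. The domain around the longest Cxcr4 region held 20 regions over 144.0 kb, from 130478326 to 130622322. Its regions covered 62.8% of it and made up 75.3% of the covered bases of the window, and it ranked 19 by covered bases among the 20379 domains of the genome. In bins of 20 kb, coverage was 89.9% and 86.3% at 80 to 120 kb from the window's start, fell to 29.8% at 140 to 160 kb, and was 67.5% and 56.1% at 180 to 220 kb. The domain ended before the longest gap of the window, 20.2 kb (130622323 to 130642501), between regions of 1503 bases (130620820 to 130622322) and 4529 bases (130642502 to 130647030). Outside this domain, every bin that it did not reach was between 16.3% and 29.2% covered.

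**Figure D2:**
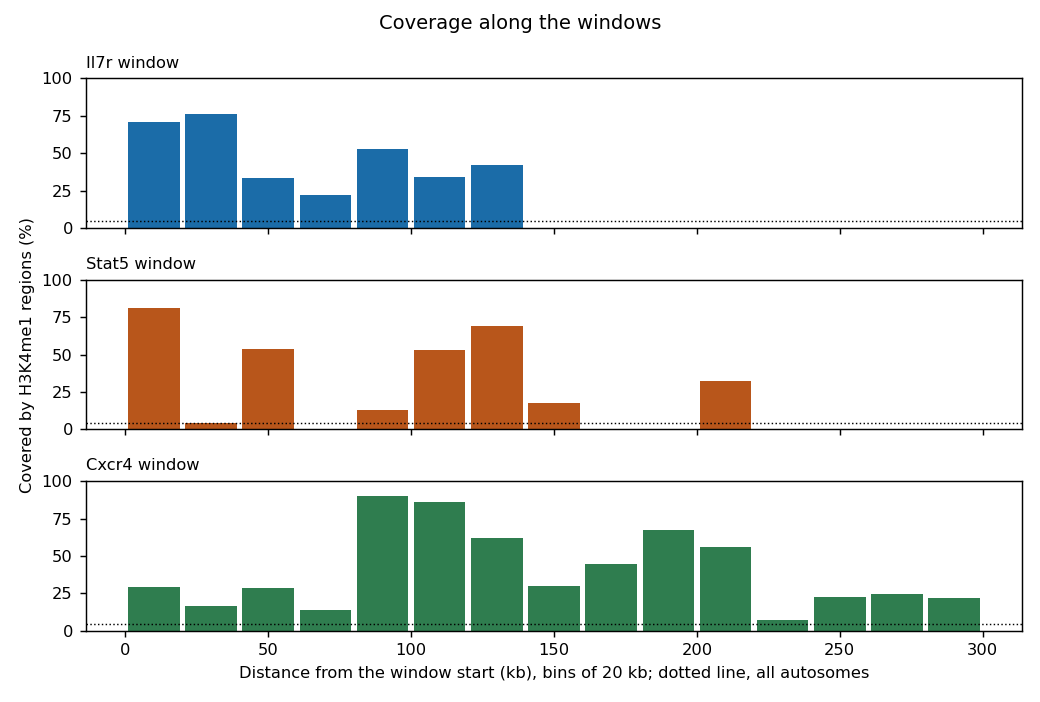
Percent of each 20 kb bin covered by H3K4me1 regions (bars) along the Il7r, Stat5 and Cxcr4 windows, in kb from each window's start; the dotted line is the share of all autosomes covered, 4.49%. Coverage peaked at 75.9% in the Il7r window, 81.5% in the Stat5 window and 89.9% in the Cxcr4 window, and 3 bins of the Stat5 window held none.

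By their medians, regions in all 3 windows were long for this list, but the Il7r window mixed short and long ones. Longer than the list median were 9 of 16 Il7r regions, 14 of 15 Stat5 regions and 22 of 32 Cxcr4 regions. The 25th percentile of length was 871.5 bases in the Il7r window, near the 813 bases of the whole list. Median lengths were 3545 bases in the Il7r window, 3490 bases in the Stat5 window and 2774.5 bases in the Cxcr4 window, against 1497 bases over all regions. Chromosomes 15, 11 and 1 had medians of 1562.5, 1634 and 1471 bases. Regions of at least 5000 bases made up 5 of 16 in the Il7r window (31.2%, Wilson 95% interval 14.2 to 55.6%), 5 of 15 in the Stat5 window (33.3%, 15.2 to 58.3%) and 6 of 32 in the Cxcr4 window (18.8%, 8.89 to 35.3%), against 8.92% of all regions. In the Cxcr4 window the interval reaches down to that share, so the longer lengths there were not resolved by this count.

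**Figure D3:**
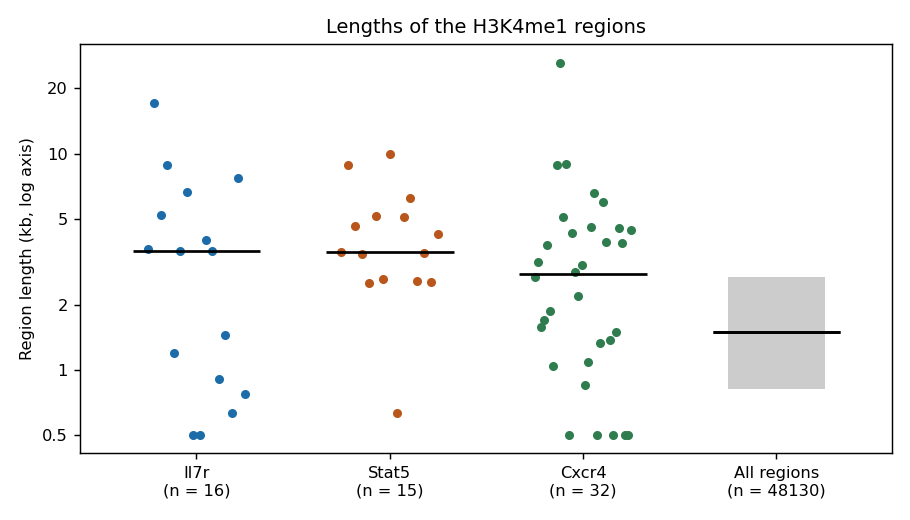
Length of each region (points, log axis) in the Il7r, Stat5 and Cxcr4 windows, spread sideways in order of position, with the median (black line); for all 48130 regions the grey box runs from the 25th to the 75th percentile, 813 to 2694 bases. All 3 window medians lie above the top of the box. No Stat5 region has the shortest length, which 14.3% of all regions have.

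Gaps between neighbouring regions were short in each window, with medians of 2.73 kb (Il7r), 2.22 kb (Stat5) and 3.34 kb (Cxcr4), against 8.87 kb over the whole list. Gaps of at least 20 kb numbered 1 of 15, 2 of 14 and 1 of 31 in these windows, against 32.1% of all gaps. Window gaps were counted only between regions of the same window, so very long gaps could not enter there but did enter the list values. Short gaps also go with the higher number of regions per 100 kb. The Stat5 window thus combined the lowest median gap with the longest single gap.

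Few stretches of the genome were covered to this degree. Among all consecutive autosomal tiles of the same width, 99.7% were covered less than the Il7r window, which left 47 of 17137 covered as much or more. For the Stat5 window 98.4% were covered less, leaving 171 of 10895, and for the Cxcr4 window 99.8%, leaving 12 of 7984. The median tile was covered to 0.452%, 0.981% and 1.24% at the 3 widths. Tiles without a region were counted too, and 52.4%, 59.1% and 63.2% of tiles held at least 1. Of tiles on the same chromosome, 99.7% (Il7r), 96.8% (Stat5) and 100% (Cxcr4) were covered less. The windows were chosen with earlier results of these data known. The windows were set around genes and the tiles were not, so a window can hold a cluster whole where the tiles split it; tiles overlapping the windows were kept in. By number of regions the Stat5 window stood lower, with fewer regions in 92.3% of tiles, against 99.0% for Il7r and 99.6% for Cxcr4.

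**Figure D4:**
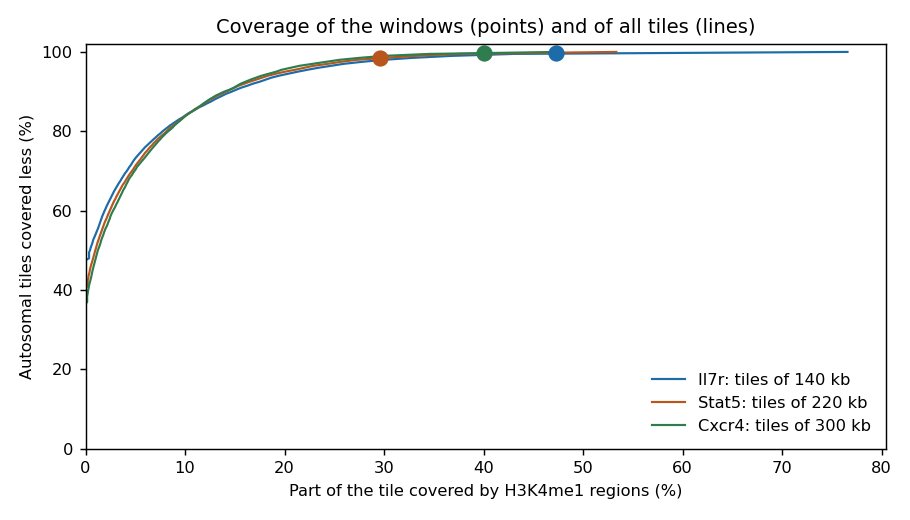
Share of autosomal tiles covered less (vertical axis, percent) against the part of a tile covered by H3K4me1 regions (horizontal axis, percent), as lines for tiles of 140, 220 and 300 kb; points mark the Il7r, Stat5 and Cxcr4 windows. The 3 points lie on the flat upper end of their lines, at 99.7%, 98.4% and 99.8%.

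The deposited list gives no tag count per region, but its row order carries some information. Place in the list fell closely with length (Spearman rank correlation -0.97 across the 48130 regions of 1 library, a description). It did not follow position (-0.0023). After place 30000, 90.6% of neighbouring rows were on the same chromosome, where chromosomes drawn by their share would give 5.30%, so rows were grouped by chromosome within many short runs. No source used here states the value that set the order, and place is used only as the authors' order.

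The longest Cxcr4 region stood at place 30 of 48130, ahead of 87.5% of the 32 regions within 10% of its length. The longest Il7r region stood at place 445, ahead of 16.0% of 131 regions of like length, and the longest Stat5 region at place 1255, ahead of 42.3% of 504. Places up to 4813, the first 10% of the list, were held by 5 of 16 Il7r regions, 3 of 15 Stat5 regions and 9 of 32 Cxcr4 regions. Among regions of like length the windows stood near the middle: the median region stood ahead of 48.2% of regions of like length in the Il7r window, 43.0% in the Stat5 window and 51.6% in the Cxcr4 window, where 50% is the middle.

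Regions ahead of over 90% of regions of like length numbered 5 of 32 in the Cxcr4 window and 0 of 15 and 0 of 16 in the Stat5 and Il7r windows, against 9.63% of the whole list. Regions ahead of under 10% numbered 2, 2 and 1 in these windows, against 8.70% of the list. These few regions set no window apart from the list. The 2 earliest Cxcr4 regions for their length, chosen after their values were seen, lay side by side. The region from 130606496 to 130610387, 3892 bases long, stood at place 3035, ahead of 99.4% of 2307 regions of like length, and its neighbour of 5946 bases stood at place 1674, ahead of 97.6% of 1186.

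**Figure D5:**
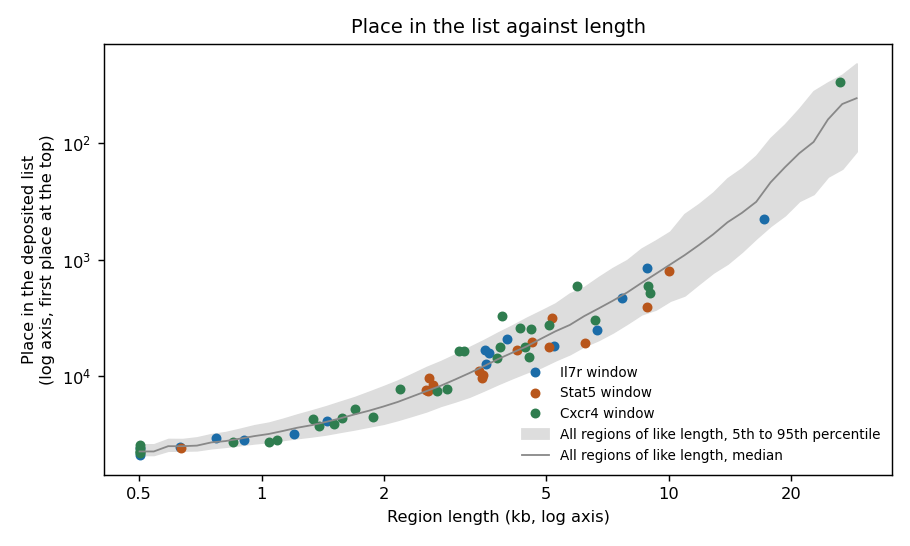
Place in the deposited list (log axis, first place at the top) against region length (log axis) for the regions of the Il7r, Stat5 and Cxcr4 windows (points); the grey line and band give the median and the 5th to 95th percentile of place over all regions of like length. The Cxcr4 region of 26351 bases stands at place 30, and most points of all 3 windows lie within the band.

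The exact Poisson intervals on regions per 100 kb overlap between the windows, and differences between windows were not tested. These intervals treat regions as independent, and regions stitched by the caller from neighbouring peaks are not, so they are too narrow.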

How the data were processed

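The submitters' processing notes name mm9, Bowtie 0.12.9 and HOMER 4.7. Per the file headers, the authors called H3K4me1 regions against input by the histone style of findPeaks, with neighbouring peaks stitched into regions. The peak size was 500 bases and the minimum distance between peaks was set to 1000 bases. Peaks needed at least 26 tags, counted at most 2 tags per position and had to be 4-fold over input. The smallest gaps between regions were 513 bases (Il7r), 502 bases (Stat5) and 567 bases (Cxcr4), so regions could lie closer than 1000 bases. The score deposited by the authors is 1 in every row and carries no measurement. Per the labels, libraries were made from 1 to 10 ng of DNA with 18 PCR cycles, so tags are not independent molecules.

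Positions count from 1. Covered bases were cut at the window borders, and chromosome values run from first to last region. Domains join gaps of up to 12.5 kb. Tiles start at the first base of each of the 19 autosomes and lie between its first and last regions. Like length means within 10%. Regions named are the 5 longest of each window, those beside its longest gap and those crossing a border, plus 1 Cxcr4 region chosen after its values were seen. The genes, windows and measures were chosen with earlier results of these data known. Genes of the same pathways elsewhere were not analysed here, since no mm9 annotation was used. Coverage, stitching and tiles were tested on simulated data. Python 3.11.15, numpy 2.4.6, pandas 2.3.3, scipy 1.17.1 and matplotlib 3.10.9 were used.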

Additional observations from a re-analysis of the deposited data

How the results depend on the processing

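Of 55 values under other settings, 40 stayed within the counting interval of the main value, or within 1.5 times for counts of domains, and 15 moved. Numbers of regions per 100 kb, median lengths and places among regions of like length stayed within it under each setting run. Widening the windows by 50 kb on each side gave a coverage of 32.6% (Il7r) and 33.1% (Cxcr4), against 47.3% and 40.01%. Without its longest region the Il7r window was covered to 35.0% and the Cxcr4 window to 31.2%; 99.2% of tiles were then covered less than the Cxcr4 window, against 99.8%. Of tiles holding at least 1 region, 99.5% were covered less than the Il7r window and 97.3% less than the Stat5 window. Of tiles on the same chromosome, 96.8% were covered less than the Stat5 window and 100% less than the Cxcr4 window. By number of regions the shares were 99.0% (Il7r), 92.3% (Stat5) and 99.6% (Cxcr4). With a stitching gap of 5 kb the Il7r window had 5 domains in place of 2 and the Cxcr4 window 11 in place of 5. With 25 kb the Cxcr4 window lay in 1 domain. The Stat5 window had 6 domains at 5 kb and 3 at 25 kb in place of 4, within 1.5 times. Settings on tile counts by regions, on the tiles without the longest Cxcr4 region and on like length were chosen after seeing the data. No paired analysis was possible because the labels give no replicates. How far each region lay above the calling threshold was not analysed here.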
